A study of Rattus norvegicus with 64 samples.

Results

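Secreted Wnt antagonists and Wnt target genes were followed on 1-color Agilent rat arrays in reconstructed urinary bladder wall. The list named 10 rat genes, the antagonists Sfrp1, Sfrp2, Sfrp4, Frzb, Wif1, Dkk1, Dkk2 and Dkk3 and the target genes Axin2 and Lef1. Members were the probes of the 30367 gene probes whose RefSeq accession, without version, belonged to 1 of these genes. The rule found 11 probes for 9 genes, with 2 probes each for Dkk1 and Lef1, and Wif1 was not analysed here because no probe was matched to it. Where a gene had 2 probes, the brighter one over all arrays was used and the other is named beside it.

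Male syngeneic Wistar rats underwent removal of part of the bladder, and the wall was closed with a graft of bladder acellular matrix (BAM), which is bladder wall freed of its cells. The graft was either BAM alone or BAM seeded with ASCs (ADSCs in the labels), stromal cells cultured from retroperitoneal fat of male Wistar rats aged 10 weeks. Total RNA was taken at 7, 30, 90 and 180 days, with 8 rats, 1 array each, in every one of the 8 groups and 64 arrays in all. The age of the operated rats was not given in the sources used here, all groups were operated, and no intact bladder was among the arrays analysed here.

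Wnt ligands act on Frizzled receptors and LRP co-receptors, which stabilizes β-catenin and lets it work with TCF and LEF factors in the nucleus. Sfrp proteins, Frzb among them, and Wif1 bind Wnt ligands outside the cell, whereas Dkk proteins bind the LRP co-receptors. Axin2 is a feedback target that helps to degrade β-catenin, and Lef1 is both a target and a partner of β-catenin. In the bladder, Wnt signals pass between the urothelium and the stroma beneath it.

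The promoters show which members carry the letters that TCF and LEF factors are known to bind. RefSeq promoters of build GRCr8 were listed for 6 of the 10 genes, and the 250 bases before the start were searched on both strands for 4 words. The word CTTTGAA stood in 4.68% of all 33469 promoters, the word CTTTGAT was found in 3.15%, the word CTTTGTA was found in 3.21% and the word CTTTGTT was found in 5.14%. These words share their first 5 letters, so no more than 1 can start at the same base, and 14.9% of promoters held any of them. Axin2 and Dkk1 held 2 matches each, and Sfrp2, Frzb, Wif1 and Lef1 held none. The Axin2 matches began 232 and 132 bases before the start, and those of Dkk1 96 and 77 bases before it. These sequences are shown because they set a target gene and an antagonist with the letters, in capitals, beside a pair without them. Axin2 lies at chr10:94398535-94398784 (plus strand), Dkk1 at chr1:237798651-237798900 (minus), Sfrp2 at chr2:171387286-171387535 (plus) and Lef1 at chr2:222340463-222340712 (plus).
Axin2: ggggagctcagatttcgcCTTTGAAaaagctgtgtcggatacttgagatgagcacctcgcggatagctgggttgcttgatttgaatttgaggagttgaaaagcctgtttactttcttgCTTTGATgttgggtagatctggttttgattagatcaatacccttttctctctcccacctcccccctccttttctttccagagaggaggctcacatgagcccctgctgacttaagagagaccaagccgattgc
Dkk1: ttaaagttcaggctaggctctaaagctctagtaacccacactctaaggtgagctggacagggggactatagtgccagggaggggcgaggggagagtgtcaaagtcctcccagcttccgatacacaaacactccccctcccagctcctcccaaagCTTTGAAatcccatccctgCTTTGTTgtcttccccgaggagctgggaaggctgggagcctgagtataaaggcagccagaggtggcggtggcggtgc
Sfrp2: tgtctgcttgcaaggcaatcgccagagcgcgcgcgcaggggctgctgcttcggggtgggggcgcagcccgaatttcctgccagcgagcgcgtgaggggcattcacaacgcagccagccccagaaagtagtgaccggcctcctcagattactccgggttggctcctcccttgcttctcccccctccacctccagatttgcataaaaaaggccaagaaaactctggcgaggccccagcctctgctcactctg
Lef1: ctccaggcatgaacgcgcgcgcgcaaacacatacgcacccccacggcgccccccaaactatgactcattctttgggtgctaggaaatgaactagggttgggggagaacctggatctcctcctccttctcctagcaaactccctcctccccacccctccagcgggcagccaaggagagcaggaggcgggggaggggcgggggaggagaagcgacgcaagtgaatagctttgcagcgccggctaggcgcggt
A match is a run of letters and not a measured binding site.

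A level is the log2 processed signal after subtraction of the 75th percentile of that array, so that 0 is a bright spot and each unit is 2-fold. Levels compare arrays for 1 probe and not probes with each other. Values of a group are its lowest, median and highest of 8 arrays, and 4 such sets follow the days in order. The 7 and 30 day arrays had 73.3 to 95.6% of their gene spots well above background and the 90 and 180 day arrays 35.5 to 64.6%. The 2 sets were scanned on different dates, so the step from 30 to 90 days and the scan cannot be told apart. Each slide held 1 group, so slide and group cannot be told apart either. The median local background of the 90 day arrays ran from 321 to 366 with BAM and from 99 to 120 with ASCs. All 8 smooth muscle markers and all 7 measured urothelium markers exceeded background on all 8 arrays of 1 or more groups, which is what bladder wall should show. In bulk tissue, fewer cells of a type and less RNA per cell cannot be told apart.

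**Figure D1:**
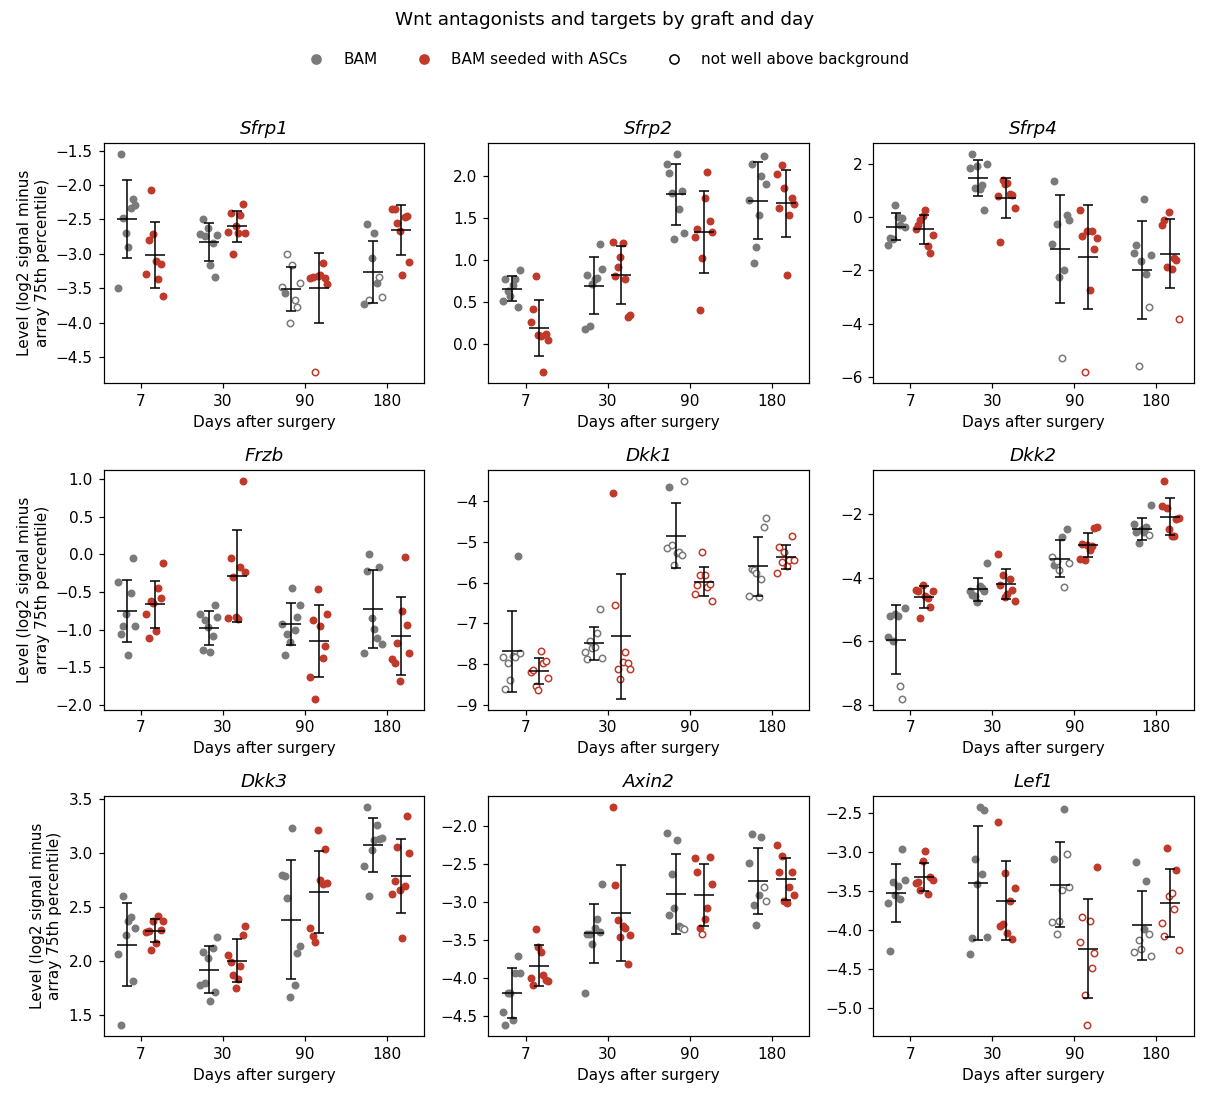
Level of each gene (log2 signal minus the array's 75th percentile) against days after surgery, 1 point per rat, with bars for mean ± SD of 8 arrays; gray is BAM, red is BAM seeded with ASCs, and open points were not well above background. Dkk2 has a higher mean at each later day in both grafts (not from 7 to 30 days with ASCs after quantile normalization), Sfrp4 spreads widely at 90 and 180 days, and most Dkk1 points are open.

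The first question was whether seeding with ASCs changed these genes at a given day. The 8 groups entered 1 limma fit of the 64 arrays, and a gene was called at a Benjamini-Hochberg adjusted p under 0.01 and a fold change over 1.5. At 7 days 1 of 9 genes was called, Dkk2, against 7.73% of all probes. At 30, 90 and 180 days 0 of 9 were called by limma, against 1.67%, 12.5% and 2.44% of all probes, and 0 of 9 by 2-way analysis of variance. An unadjusted p under 0.05 was reached by 3 genes at 7 days (Sfrp1, Sfrp2 and Dkk2), 1 at 30 days (Frzb), 3 at 90 days (Sfrp2, Dkk1 and Lef1) and 1 at 180 days (Sfrp1). The median difference of all probes between the grafts, in order of day, was -0.16, 0.11, -0.27 and 0.06 on the log2 scale. Groups without overlap were found for 0 of 9 genes at every day, against 4.46%, 1.93%, 3.17% and 1.99% of all probes.

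**Figure D2:**
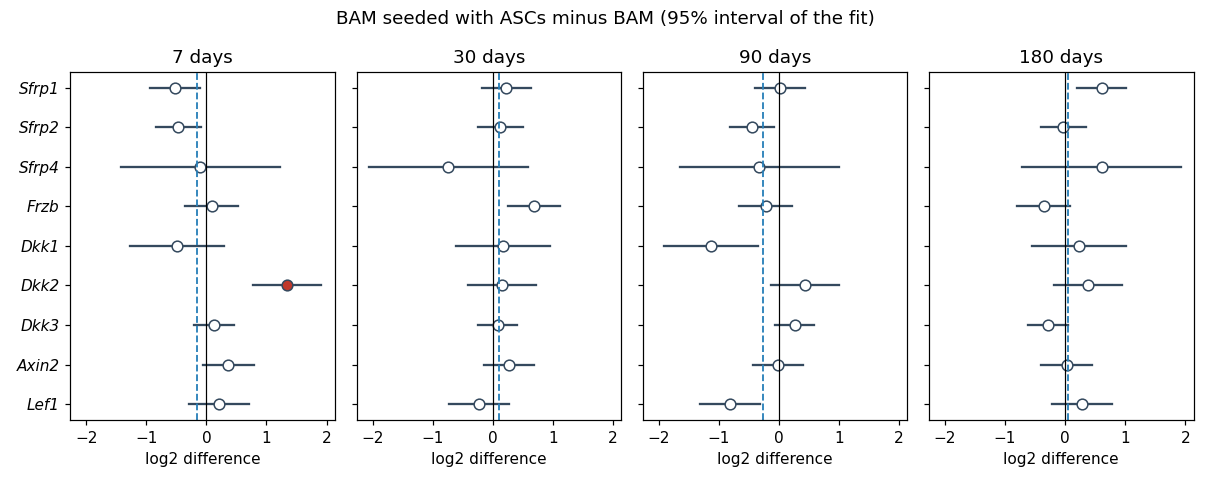
Difference between BAM seeded with ASCs and BAM (log2, horizontal) for each gene at each day, with the 95% interval of the limma fit over 64 arrays; the filled point was called and the dashed line is the median of all probes. Only Dkk2 at 7 days is filled, at 1.35, and the Sfrp4 intervals are the widest.

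Dkk2, an antagonist that binds LRP co-receptors, was higher with ASCs at 7 days. Its levels there had a lowest, median and highest value of -5.27, -4.48 and -4.23, against -7.81, -5.54 and -4.94 with BAM. The seeded group lay high and close together, 7 of its 8 arrays were above every BAM array, and the groups overlapped by the remaining array. The difference was 1.35 on the log2 scale (SE 0.28, 2.54-fold, limma adjusted p = 3.92e-04), or 1.51 above the median of all probes. The probe was well above background on all 8 seeded arrays and on 6 of 8 BAM arrays, and replicates 6 and 7 of BAM, at -7.42 and -7.81, were not. Leaving out 1 array at a time gave differences from 1.08 to 1.49, all called. No fit left out replicates 6 and 7 of BAM together, so their joint weight in the 2.54-fold difference was not tested. The call was lost with normexp background correction (difference 0.15, adjusted p = 0.465), with quantile normalization (1.17, adjusted p = 0.0118) and when the 7 day groups were fitted alone (adjusted p = 0.0236). Normexp was run with an offset of 50 added to the signals, which by itself lowers log2 differences of dim probes.

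Markers of other cells moved at the same day. Of the 7 urothelium markers 5 were called higher at 7 days (median difference 2.06), against 7.73% of all probes called, and their mean level ran from 0.99 to 3.03 with ASCs and from -2.62 to 2.38 with BAM. The neutrophil markers had 2 of 5 called lower and the endothelium markers 2 of 7. Across the 8 BAM arrays at 7 days, Dkk2 and the mean urothelium level had a Pearson r of 0.93, and across the 8 seeded arrays 0.62. Dkk2 was well above background on only 6 of these 8 BAM arrays. Over the 64 arrays Dkk2 had an r of 0.84 with the mean smooth muscle level and 0.75 with the mean urothelium level. After the group means were taken out, these values were 0.47 and 0.40. Of the 8 smooth muscle markers 0 were called at 7 days. The 7 day BAM arrays with the least urothelium marker signal were those with the least Dkk2. The part of urothelium or smooth muscle cells in the Dkk2 difference was not tested.

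At later days the Dkk2 groups were closer. At 30 days the values were -4.73, -4.31 and -3.23 with ASCs and -4.77, -4.42 and -3.54 with BAM. At 90 days they were -3.43, -2.97 and -2.40 against -4.28, -3.49 and -2.46, with 3 of 8 BAM arrays well above background. At 180 days they were -2.69, -2.12 and -0.93 against -2.89, -2.53 and -1.70. The groups overlapped at each of these days, and the differences of 0.15, 0.44 and 0.38 (SE 0.28 each) had limma adjusted p-values of 0.776, 0.208 and 0.679. The fall in the difference between 7 and 30 days was itself not called (difference of differences -1.20, SE 0.40, limma adjusted p = 0.0575, against 0.985% of all probes called).

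Dkk2 also differed between the days. With BAM it rose by 1.59 from 7 to 30 days (SE 0.28, limma adjusted p = 1.95e-05), by 0.96 from 30 to 90 days (adjusted p = 0.00267) and by 0.95 from 90 to 180 days (adjusted p = 0.00922). With BAM seeded with ASCs it rose by 1.25 from 30 to 90 days (adjusted p = 2.44e-04), whereas 0.40 from 7 to 30 days and 0.89 from 90 to 180 days did not pass (adjusted p = 0.282 and 0.0276). Of these steps, the one from 7 to 30 days with BAM was 0.25 with normexp and was not called (adjusted p = 0.262), the one from 30 to 90 days with BAM was 0.56 after quantile normalization (adjusted p = 0.159) and the one from 90 to 180 days with BAM was 0.57 with normexp, short of the fold threshold. After quantile normalization the step from 7 to 30 days with ASCs was -0.10 (adjusted p = 0.916). The means of the 4 days spanned 11.3-fold with BAM and 5.80-fold with ASCs. Genes most like Dkk2 over the 64 arrays were Ahrr (r = 0.92), Olfml1 (0.92) and Efemp1 (0.92), of 10950 genes compared. After the group means were taken out, these values were 0.60, 0.52 and 0.48.

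Dkk1, the best known inhibitor of the LRP co-receptors, was near background throughout. Its probe was well above background on 0 or 1 of the 8 arrays in every group. With BAM the lowest, median and highest values were -8.60, -7.83 and -5.34, then -7.87, -7.59 and -6.63, then -5.58, -5.19 and -3.49, and then -6.36, -5.73 and -4.41. With ASCs they were -8.64, -8.16 and -7.69, then -8.37, -7.95 and -3.79, then -6.45, -6.04 and -5.25, and then -5.76, -5.44 and -4.86. The values were high at the late days in both grafts, as was the lowest signal that counted as well above background, with group means of -7.98 to -7.19 at 7 and 30 days and -5.97 to -4.85 later. The step from 30 to 90 days was 2.65 with BAM and 1.34 with ASCs, but 0.34 and 0.39 after quantile normalization (adjusted p = 0.214 and 0.173), so no change in Dkk1 is reported from it. At 90 days 0 of 8 seeded and 1 of 8 BAM arrays were well above background, and no fold is given. The fitted difference was not called (limma adjusted p = 0.0214, and 0.0217 for the second probe, also dim), and it was -0.07 with normexp (adjusted p = 0.905) and -0.21 after quantile normalization (adjusted p = 0.527).

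Dkk3, a divergent Dickkopf protein with no settled part in LRP inhibition, was well above background on all 64 arrays. With BAM its values were 1.41, 2.27 and 2.61, then 1.63, 1.91 and 2.22, then 1.67, 2.36 and 3.23, and then 2.60, 3.12 and 3.43. The seeded values were 2.10, 2.28 and 2.42, then 1.75, 1.97 and 2.32, then 2.18, 2.72 and 3.21, and then 2.21, 2.72 and 3.35. The late levels were the high ones in both grafts, and the grafts overlapped at each day. It rose by 0.69 from 90 to 180 days with BAM (SE 0.17, limma adjusted p = 9.9e-04) and by 0.64 from 30 to 90 days with ASCs (adjusted p = 0.00111). The step with ASCs was 0.54 with normexp, short of the fold threshold. The differences between grafts ran from -0.28 to 0.26 with limma adjusted p-values of 0.199 or more. Fam110b (r = 0.89), Iglon5 (0.84) and Cyth3 (0.84) were the genes most like it, with 0.74, 0.65 and 0.66 after the group means were taken out.

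Sfrp1, a ligand-binding antagonist, was lowest at 90 days in both grafts. With BAM its values were -3.49, -2.41 and -1.55, then -3.34, -2.73 and -2.49, then -4.00, -3.52 and -3.01, and then -3.73, -3.38 and -2.57. In seeded grafts they were -3.62, -3.13 and -2.08, then -3.00, -2.64 and -2.28, then -4.72, -3.34 and -3.13, and then -3.30, -2.51 and -2.35. The seeded group stood a little low at 7 days and a little high at 180 days, with overlap at both. The differences were -0.52 at 7 days (SE 0.21, 95% interval -0.94 to -0.11, limma adjusted p = 0.0671) and 0.61 at 180 days (0.20 to 1.02, adjusted p = 0.0757), and neither was called. It fell from 30 to 90 days by 0.68 with BAM (adjusted p = 0.00317) and by 0.90 with ASCs (adjusted p = 2.71e-04), then rose by 0.84 with ASCs from 90 to 180 days (adjusted p = 0.00278). At 90 days only 1 of 8 BAM arrays was well above background against 7 of 8 seeded arrays. With quantile normalization both changes with ASCs lost the call (differences -0.59 and 0.71, adjusted p = 0.106 and 0.103), and with normexp all 3 did (differences -0.35, -0.36 and 0.46, adjusted p = 0.0604, 0.0492 and 0.0384).

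Sfrp2, another Wnt-binding antagonist of stromal cells, was well above background on all 64 arrays and was higher at the late days. With BAM its values were 0.44, 0.67 and 0.88, then 0.18, 0.78 and 1.19, then 1.25, 1.81 and 2.26, and then 0.96, 1.81 and 2.24. Those with ASCs were -0.34, 0.11 and 0.81, then 0.32, 0.86 and 1.21, then 0.40, 1.35 and 2.05, and then 0.82, 1.70 and 2.13. At 7 days 7 of 8 seeded arrays lay below every BAM array, and the last one lay among them. That difference, -0.47 (SE 0.19, limma adjusted p = 0.0706), and the one of -0.45 at 90 days (adjusted p = 0.0535) were not called. It rose by 1.08 from 30 to 90 days with BAM (adjusted p = 1.2e-06) and by 0.64 from 7 to 30 days with ASCs (adjusted p = 0.00924), and the latter was lost with normexp, quantile normalization and a 75th percentile over detected probes (differences 0.59, 0.62 and 0.57, adjusted p = 0.0159, 0.0145 and 0.0212). Pbld1 (r = 0.87), Jam2 (0.86) and Eid1 (0.86) were most like it, with 0.60, 0.55 and 0.45 after the group means were taken out.

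Sfrp4, a secreted Frizzled-related protein that binds Wnt ligands, had its highest means at 30 days. With BAM its values were -1.06, -0.34 and 0.46, then 0.28, 1.52 and 2.35, then -5.29, -0.63 and 1.35, and then -5.58, -1.54 and 0.66. With ASCs they were -1.34, -0.38 and 0.27, then -0.93, 0.84 and 1.40, then -5.82, -0.73 and 0.25, and then -3.81, -1.58 and 0.20. The arrays kept close together at 7 days and ranged widely from 90 days on, with SDs of 2.02 and 1.94 at 90 days. It fell from 30 to 90 days by 2.65 with BAM (SE 0.66, limma adjusted p = 4.56e-04) and by 2.23 with ASCs (adjusted p = 0.00429). No difference between the grafts passed, and the intervals were wide, for example -2.06 to 0.59 at 30 days.

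Sfrp4 moved with macrophage markers from rat to rat. Over the 64 arrays its r with the mean level of 7 macrophage markers was 0.77, and 0.77 again after the group means were taken out. The lowest Sfrp4 arrays, at -5.82, -5.58 and -5.29, were not well above background. Their macrophage means were -3.63, -2.21 and -2.25, and their weight in r was not tested. Cd68, named below, is also 1 of the 7 markers. The 3 genes most like it were Itgb2 (r = 0.92), Cybb (0.91) and Cd68 (0.88), which are leukocyte and macrophage genes, with 0.91, 0.89 and 0.87 after the group means were taken out. The arrays share their scaling and RNA source, so these values describe the arrays and carry no test.

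**Figure D3:**
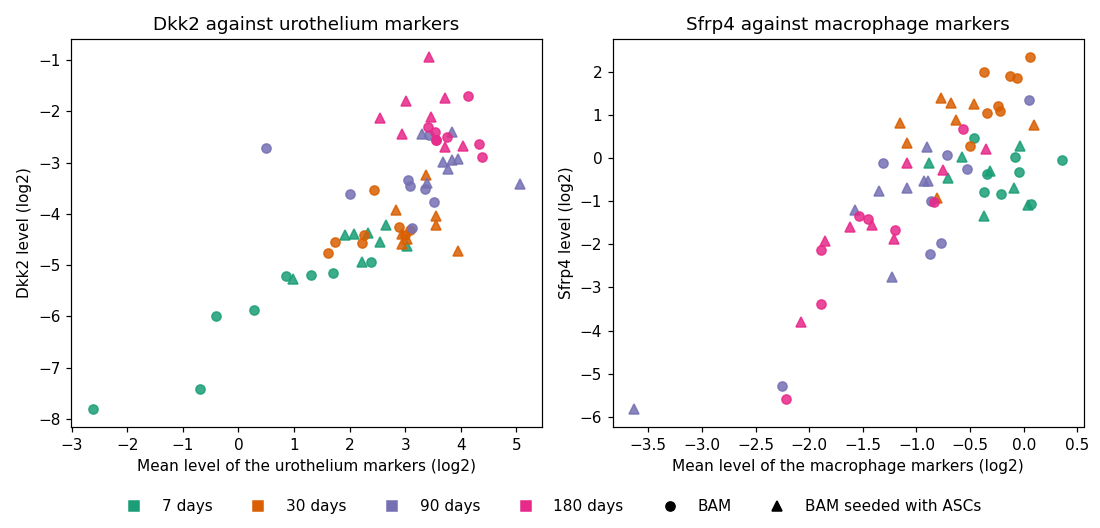
Left, Dkk2 level against the mean level of 7 urothelium markers; right, Sfrp4 level against the mean level of 7 macrophage markers (all log2), 1 point per array, colored by day, circles for BAM and triangles for BAM seeded with ASCs. The lowest Dkk2 arrays are BAM arrays at 7 days with little urothelium marker signal, and Sfrp4 rises with the macrophage markers.

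Frzb, also called Sfrp3 and known from cartilage, was well above background on all 64 arrays, and its day means with BAM spanned 1.18-fold (limma adjusted p = 0.611). With BAM its values were -1.34, -0.87 and -0.05, then -1.30, -0.92 and -0.68, then -1.33, -0.96 and -0.45, and then -1.31, -0.92 and 0.01. The seeded values were -1.11, -0.63 and -0.11, then -0.85, -0.26 and 0.98, then -1.92, -1.08 and -0.46, and then -1.68, -1.24 and -0.03. At 30 days 5 of 8 seeded arrays were above every BAM array. That difference was 0.68 (SE 0.22, 1.61-fold) and missed the threshold (limma adjusted p = 0.0394). With ASCs it fell by 0.86 from 30 to 90 days (adjusted p = 8.88e-04). Tp73 (r = 0.63), Car13 (0.60) and Alox12e (0.57) were most like it, with 0.53, 0.51 and 0.55 after the group means were taken out.

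Axin2, the feedback target, had a higher mean at each later day in both grafts. With BAM its values were -4.62, -4.20 and -3.71, then -4.19, -3.41 and -2.77, then -3.35, -3.12 and -2.09, and then -3.30, -2.86 and -2.10. In seeded grafts they were -4.09, -3.98 and -3.35, then -3.82, -3.33 and -1.75, then -3.43, -2.93 and -2.41, and then -3.02, -2.71 and -2.26. The 7 day arrays lay low and the grafts overlapped at all 4 days. It rose by 0.79 from 7 to 30 days with BAM (SE 0.21, limma adjusted p = 0.0043), and 0.70 with ASCs did not pass (adjusted p = 0.0119). The step with BAM was 0.27 with normexp and was then not called (adjusted p = 0.233). The differences between grafts ran from -0.01 to 0.36, with limma adjusted p-values of 0.258 or more. Ptch1, the Hedgehog receptor, was the gene most like Axin2 (r = 0.86, and 0.57 after the group means were taken out), before Myoz1 (0.84) and Tacr3 (0.83).

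Lef1, the β-catenin partner that is also abundant in T cells, lay at the threshold at 90 days. Its values then were -5.22, -4.23 and -3.19 with ASCs and -4.06, -3.47 and -2.45 with BAM. The seeded arrays lay lower, with 5 of 8 below every BAM array, but only 1 seeded and 2 BAM arrays were well above background. The difference was -0.82 (SE 0.25, limma adjusted p = 0.0102) and was not called. With the 75th percentile taken without outlier spots, which was the first scaling run here and was replaced after its results had been seen, it was -0.83 (adjusted p = 0.00956) and was called. It was also called as the mean of both probes (-0.84, adjusted p = 0.00361). The second probe was well above background on 0 of 8 arrays of each graft then, and alone it was not called (limma adjusted p = 0.019). For the brighter probe the difference was -0.36 after quantile normalization (adjusted p = 0.452) and -0.30 with normexp (adjusted p = 0.288). With the 90 day groups fitted alone it was not called (adjusted p = 0.0328). At 7, 30 and 180 days the values with ASCs were -3.54, -3.37 and -2.99, then -4.12, -3.78 and -2.61, and then -4.25, -3.65 and -2.95. With BAM they were -4.27, -3.50 and -2.96, then -4.31, -3.35 and -2.42, and then -4.34, -4.09 and -3.13. The grafts overlapped at these days. Lef1 was most like Gimap6 (r = 0.66), Septin1 (0.61) and Cxcl9 (0.59), with 0.65, 0.56 and 0.51 after the group means were taken out. Its r with the T cell markers after the group means were taken out was 0.52.

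**Figure D4:**
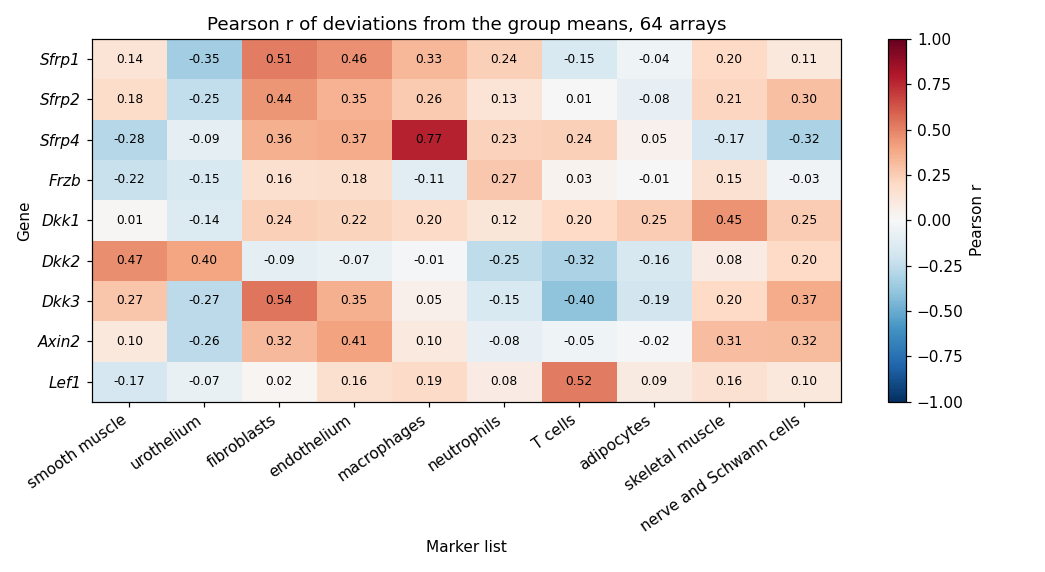
Pearson r between each gene and the mean level of each marker list over 64 arrays, after the group means were taken out, as colors and printed values. Sfrp4 with macrophages (0.77), Dkk3 with fibroblasts (0.54) and Lef1 with T cells (0.52) are the strongest; these are descriptions with no test.

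The second question was whether the genes differed between days and whether the effect of ASCs did. Over the 4 days 7 of 9 genes were called with BAM, all but Frzb and Lef1, against 67% of all probes. With BAM seeded with ASCs 9 of 9 were called, against 61%. Lef1 was among them with its brighter probe (limma adjusted p = 0.00783), whereas its second probe was not called (adjusted p = 0.369), and with the replicate number as a block 8 of 9 were called, without Lef1. The effect of ASCs differed between days for 0 of 9 genes by limma, against 18.5% of all probes, with 4 at an unadjusted p under 0.05 (Sfrp1, Frzb, Dkk2 and Lef1) and 0 by 2-way analysis of variance. The lowest limma adjusted p was 0.0131, for Sfrp1.

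Step by step, 2 of 9 genes were called with BAM from 7 to 30 days (8.65% of all probes), 5 from 30 to 90 days (44.7%) and 2 from 90 to 180 days (9.39%). With ASCs the counts were 1 (8.06%), 6 (28.1%) and 1 (4.14%). The counts from 30 to 90 days, and those over the 4 days, include Dkk1, whose signals were near background, and few Lef1 arrays were well above background from 90 days on. The direction of these 17 steps stayed under normexp, quantile normalization and the detected-probe percentile, and 7, 11 and 16 of them kept the call.

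The wider pathway is to be read against the 7.73%, 1.67%, 12.5% and 2.44% of all probes called at 7, 30, 90 and 180 days. Of 17 measured Wnt ligands, 1 was higher and 2 lower at 7 days, 0 at 30 days, 3 lower at 90 days and 1 higher at 180 days. Their median difference was 0.63 at 30 days and -0.63 at 90 days, against 0.11 and -0.27 for all probes. These medians include dim probes: 12 of the 17 ligands at 30 days and 7 at 90 days were well above background on every array of a group. Of 14 receptors and co-receptors, 1 was lower at 7 days, and 1 was higher and 1 lower at 90 days. Wnt10a, a ligand of epithelia, was 1.21 higher with ASCs at 7 days (SE 0.33, limma adjusted p = 0.00563), and was well above background on all 16 arrays. Of 7 urothelium markers 5 were called higher at that day (median difference 2.06), and their part in the 7 day pathway differences was not tested. Wnt1 was 0.91 lower at 7 days (adjusted p = 7.35e-05), 1.22 lower at 90 days (adjusted p = 7.24e-08) and 0.69 higher at 180 days (adjusted p = 0.00538). Wnt9b, another ligand of epithelia, was 1.65 lower with ASCs at 7 days (SE 0.41, limma adjusted p = 0.00236), and was well above background on 2 of 8 seeded and 8 of 8 BAM arrays.

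Among 7 membrane regulators 2 were called higher at 30 days, and 1 higher and 1 lower at 90 days. Porcn, the enzyme that lipidates Wnt ligands, had means of 2.71 ± 0.60 with ASCs and 1.60 ± 0.43 with BAM (SD, n = 8), a difference of 1.11 (limma adjusted p = 0.00584). Lgr4, an R-spondin receptor, was 0.95 higher (adjusted p = 5.02e-05). Among 10 other secreted modulators 1 was higher at 7 days, Sostdc1, a BMP and Wnt antagonist, by 1.08 (adjusted p = 0.0099), and 1 was lower at 90 days.

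At 90 days the co-repressor Tle1 was 0.79 higher (limma adjusted p = 4.98e-06) and the Wnt receptor Ror1 0.61 higher (adjusted p = 0.0027). Tle1 was well above background on 8 of 8 seeded and 7 of 8 BAM arrays, and Ror1 on 8 and 5. Fzd10, a Frizzled receptor, was 0.90 lower (adjusted p = 6.49e-09). Of 11 intracellular components 1 was higher and 1 lower at that day, and of 12 other targets and feedback genes 1 was higher at 7 days and 0 were called later. At 90 days 3 of 8 smooth muscle and 3 of 8 fibroblast markers were called higher with ASCs, against 12.5% of all probes called, and their part in these differences was not tested. Local background also differed between the grafts at 90 days, and of all probes 3791 were called in the main fit but 1451 with normexp. The offset of 50 in normexp also lowers differences of dim probes, and its part in the lower count was not tested. The named pathway genes were not checked under the other scalings at any day.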

How the data were processed

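Each array came as deposited output of Agilent Feature Extraction, with a linear processed intensity corrected for background and without normalization between arrays. The deposited series matrix repeats this intensity, but 3 columns were shifted and 1 was partly empty, so it served as an alternative. Labels gave graft, day and replicate. The log2 signal minus each array's 75th percentile over all non-control spots was used. Outlier spots were left out of probe means. The percentile had first been taken without outlier spots and was changed after results were seen. limma 3.58.1 in R 4.3.3 was fitted over 64 arrays, with Benjamini-Hochberg adjustment over 30367 probes, and tested on simulated data with 200 changed probes. Of these, 54% with a log2 change of 1 and 85% with 2 were recovered. The simulated noise was independent between probes and held no slide effect, so these shares need not hold for the real arrays. Named genes were the members, the 3 genes most like each, and at most 2 pathway genes per direction and day. Members and lists were chosen with earlier results of these data known. P-values set a difference against the spread between rats within a group, whose arrays shared a slide. Spread between slides is not included in it. The number of arrays limits the precision. Figures used Python 3.11.15 and matplotlib 3.10.9.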

Additional observations from a re-analysis of the deposited data

Results flagged for a closer look

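In 7 of 72 groups of 8 arrays, 1 array stood apart from the rest by Dixon's test, and chance flags about 5% of such groups. With ASCs these were the lowest Sfrp1 array at 90 days (-4.72), the lowest Sfrp2 array at 180 days (0.82), the lowest Sfrp4 array at 30 days (-0.93), the highest Frzb array at 30 days (0.98) and the highest Dkk1 array at 30 days (-3.79). With BAM they were the highest Dkk1 array at 7 days (-5.34) and the highest Dkk2 array at 30 days (-3.54). Both flagged Dkk1 arrays had the largest share of spots well above background in their group. It was 95.6% with ASCs at 30 days (next 86.2%) and 86.1% with BAM at 7 days (next 79.8%).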

How the results depend on the processing

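The Dkk2 call at 7 days was lost with normexp, quantile normalization and the groups fitted alone (0 genes each). Normexp called 1 gene, Frzb, for an effect that differs between days. Its offset of 50 lowers log2 differences of dim probes, so calls lost with normexp do not separate background correction from the offset. At 90 days the mean of all probes called 2 genes, Dkk1 and Lef1, and the percentile without outlier spots called 1, Lef1 (adjusted p = 0.00956); that scaling was the first one run, it was kept as an alternative after seeing the data, and the choice between them decides that call. The second probes of Dkk1 and Lef1, which enter that mean, were near background at 90 days. A 2-fold threshold left 5 genes that differ between days with ASCs. Leaving out 1 array gave 0 to 1 genes at 90 days (Lef1 was called without seeded replicates 2, 5 or 8, or BAM replicates 1, 3 or 4), 0 to 1 for the differing effect (Frzb without seeded replicate 6 at 180 days, and Sfrp1 without seeded replicate 3 or BAM replicate 1 or 5 at 7 days, seeded replicate 3 at 90 days, or seeded replicate 5 or 8 or BAM replicate 2 or 5 at 180 days), 8 to 9 between days with ASCs and 7 with BAM.

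Differences changed sign, none of them called, for Axin2 (normexp -0.017 at 7 and 0.059 at 90 days; quantile 0.33 at 90 and -0.11 at 180 days; detected-probe percentile 0.036 and -0.031; without the 3 arrays with under 50% of spots well above background, an alternative added after seeing the data, -0.033 at 180 days), Lef1 (normexp -0.037 at 7 days), Dkk1 (quantile -0.26 at 30 days; series matrix 0.72 at 7 days), Dkk2 (quantile -0.16 at 30 days), Sfrp4 (detected-probe percentile 0.0045 at 7 days) and Sfrp2 (0.093 at 180 days without those 3 arrays). Without 1 array the ranges that crossed 0 were -0.20 to 0.026 (Sfrp4, 7 days), -0.33 to 0.33 (Dkk1, 30 days), -0.054 to 0.19 (Sfrp1), -0.91 to 0.29 (Sfrp4) and -0.085 to 0.10 (Axin2) at 90 days, and -0.058 to 0.11 (Axin2) and -0.14 to 0.092 (Sfrp2) at 180 days. The causes were not tested.

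With the replicate number as a block the counts were 1, 0, 0 and 0 genes at the 4 days, 0 for the differing effect, 7 with BAM and 8 with ASCs, without Lef1. Same-numbered arrays of a day correlated from -0.28 to 0.33 (median 0.03, against -0.003 for other numbers). No pairing was visible, but these correlations cannot show that the numbers pair no samples. Signals near background limit Dkk1 at every day and Lef1 from 90 days on.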
